A study of Caenorhabditis elegans with 2 samples.

Results

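Synaptic vesicle release genes were examined in a ChIP-seq study of EGL-5, an Abdominal-B-type Hox protein of Caenorhabditis elegans. The 10 genes, of 19973 protein-coding genes in the annotation, were snb-1, ric-4, unc-64, snt-1, unc-18, unc-13, unc-10, rab-3, ric-19 and egl-3. They were listed by name, as genes used in all neurons for releasing transmitter or peptide, in the knowledge of earlier results of these data. A peak was counted for a gene when its summit lay in the gene's territory, which is the gene body with the flanking intergenic sequence up to the nearest protein-coding gene on each side.

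The study holds 1 group of 2 biological replicates. Each was made from whole L3 larvae, with the sexes pooled, of strain OP54. That strain has the genotype unc-119(ed3) III; wgIs54, in which wgIs54 is the insertion that supplies an eGFP-tagged EGL-5. Both samples therefore carry the unc-119 allele and the added egl-5 sequence, whose copy number and level relative to the native gene are not known here. A library came from all tissues at once, so binding in neurons and binding in other cells cannot be told apart, nor can a few strongly bound cells and many weakly bound ones. Without a control group or a second condition, every comparison below is between the 10 genes and other genes of the same lists, and no test between conditions was possible.

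Transmitter leaves a neuron when a synaptic vesicle fuses with the plasma membrane. Fusion is driven by SNARE proteins, in which synaptobrevin on the vesicle zips onto syntaxin and SNAP-25 on the plasma membrane. UNC-18 and UNC-13 prepare syntaxin for this, synaptotagmin couples it to calcium, and RIM and RAB-3 hold vesicles at the release site. In the worm these genes are expressed in nearly all neurons and are known as pan-neuronal genes. Hox proteins such as EGL-5 are known for giving regional identity to cells, among them tail neurons and the HSN motor neurons. The genes ric-19 and egl-3 act mainly in dense core vesicles, which carry neuropeptides.

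Peaks came in 4 lists on the ce11 build. There were 30000 peaks in each replicate's own list and 28619 in a list from both replicates pooled. The list filtered by the irreproducible discovery rate (IDR) held the 2570 highest of the pooled peaks. Each peak has a score on the authors' own scale, which is comparable only within a list, so ranks within a list are given beside scores. The depth behind a score is unknown. The replicate numbers are not secure. When ce11 and ce10 lists were compared rank by rank, replicate 1 on ce11 differed from replicate 1 on ce10 by a median of 64.7% of the score, but from replicate 2 by 0.219%. Replicate 2 on ce11 likewise differed by 39.3% from its namesake and by 0.340% from the other. The numbers thus appear exchanged between builds, and which biological sample each belongs to is not known here. The numbers below follow the ce11 lists.

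EGL-5 peaks of the IDR list lay in the territories of 6 of the 10 genes, namely snb-1, snt-1, unc-18, unc-10, ric-19 and egl-3. This is 60% of the members (exact binomial 95% interval 26.2 to 87.8), against 16.9% of all protein-coding genes. Territories of the members were long, with a median of 13.95 kb against 4.784 kb for all protein-coding genes, and long territories hold a peak more often. In promoter windows, which reach 1000 bp before and 200 bp past each annotated start, only snb-1 and ric-19 had an IDR summit. That is 20% of the members (interval 2.52 to 55.6) against 8.92% of all protein-coding genes, and the interval of the members spans the value of all genes.

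The share of genes with an IDR summit grew with the length of the territory. Among all genes with territories under 5 kb, 10.6% held an IDR summit, and ric-19 was the member of that class. With 5 to 10 kb the share was 17.2%, and snb-1 and unc-18 had a summit while rab-3 had none. With 10 to 20 kb it was 29.7%, and of 3 members egl-3 had a summit and ric-4 and unc-64 had none. At 20 kb or more it was 40%, and snt-1 and unc-10 had a summit while unc-13, with the longest territory of the members at 46.148 kb, had none. These length classes were chosen after the values had been seen.

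**Figure D1:**
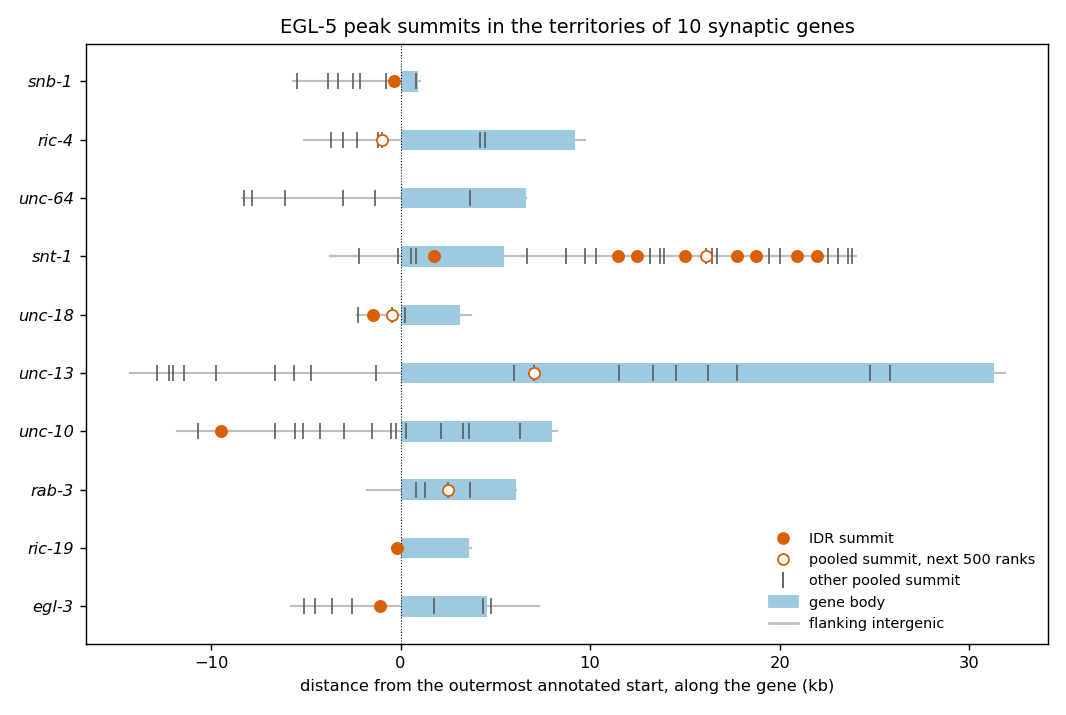
Summits of EGL-5 peaks in the territories of the 10 genes, drawn to scale along each gene, with 0 at its outermost annotated start. Filled circles are IDR peaks, open circles are pooled peaks among the 500 ranks just below the IDR list, and ticks are other pooled peaks. Of the 13 filled circles 8 belong to snt-1, and ric-4, unc-64, unc-13 and rab-3 have none.

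The map of summits along each gene shows 13 IDR peaks, of which 8 lay in the territory of snt-1 and 1 in each of the other 5. Over the members' combined 161.627 kb, which is 0.161% of the genome, this is 8.04 IDR summits per 100 kb (exact Poisson 95% interval 4.28 to 13.8), against 2.56 over the genome. The figure rests on snt-1. Without its territory, an exclusion chosen after seeing the data, 5 summits in 133.882 kb gave 3.73 per 100 kb (interval 1.21 to 8.72), which spans the genome's value. With flanks of at most 2000 bp it was 4.84 (interval 1.57 to 11.3), and with territories ended by genes of any type 4.27 (interval 1.39 to 9.96), both spanning the genome's value as well. Intervals here and below cover counting error only and treat summits as independent. The 8 of snt-1 share a locus, so intervals that include them may be too narrow. The members were listed with earlier results known, so no interval serves as a test.

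Of the 13 IDR peaks 12 stood in intergenic sequence, 7 of these downstream of snt-1, and 1 stood in a gene body. Member intergenic sequence held 12 IDR summits in 82.656 kb, or 14.5 per 100 kb (interval 7.50 to 25.4), against 4.69 in all intergenic sequence. Without snt-1 it was 8.28 (interval 2.69 to 19.3), which spans the genome's value. The gene bodies of the members held 1 summit, or 1.27 per 100 kb, close to the 1.30 in all gene bodies. Classed by position, 3 of the 13 IDR summits of the members (23.1%) lay in a promoter window, against 54.0% of all IDR summits. Intergenic sequence outside promoter windows held 9 (69.2%) against 27.2%. Outside snt-1 the members had 3 of 5 IDR summits in a promoter window, the window at unc-18 being that of its neighbour.

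Scores of the members' IDR peaks were moderate. Their median was 37.4, with a range of 31.1 to 72.0, against a median of 40.97 and a range of 30.8 to 509.8 for all IDR peaks. Of the 13 peaks, 3 were among the 1285 highest. These were the peak at ric-19, the highest downstream of snt-1 and the peak inside snt-1.

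The SNARE genes come first. The gene snb-1 (WBGene00004897, chromosome V, 6655562 to 6656501, minus strand) encodes synaptobrevin, the SNARE of the vesicle membrane. Its IDR peak, at 6656663 to 6657026, had its summit 344 bp upstream of the start and in the promoter window of snb-1 alone. The pooled score was 37.3, at rank 1656 of 2570. The same region scored 10.9 in replicate 1, at rank 3449, and 28.3 in replicate 2, at rank 1035. Both replicates had their highest snb-1 peak here, but replicate 1 placed it outside its 2570 highest peaks. The 6.741 kb territory held 8 pooled summits, or 11.9 per 10 kb, which is at percentile 97.7 among protein-coding genes.

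The sequences at the peaks are shown for 3 members with an IDR peak nearest to their own start and not in another gene's promoter window. Each is the 300 bp around the summit on ce11, read from the RefSeq genome of that build along the strand of the gene. Capitals mark matches to any of 7 motifs on either strand, which are described with the motif counts.
snb-1, chrV:6656695-6656994, minus strand: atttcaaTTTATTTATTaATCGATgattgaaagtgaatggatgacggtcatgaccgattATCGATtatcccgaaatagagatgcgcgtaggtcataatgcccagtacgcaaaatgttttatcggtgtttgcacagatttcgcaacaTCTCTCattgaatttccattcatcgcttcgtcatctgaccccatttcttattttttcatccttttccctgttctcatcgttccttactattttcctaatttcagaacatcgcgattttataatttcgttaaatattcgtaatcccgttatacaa
snt-1, highest downstream peak, chrII:6822307-6822606, plus strand: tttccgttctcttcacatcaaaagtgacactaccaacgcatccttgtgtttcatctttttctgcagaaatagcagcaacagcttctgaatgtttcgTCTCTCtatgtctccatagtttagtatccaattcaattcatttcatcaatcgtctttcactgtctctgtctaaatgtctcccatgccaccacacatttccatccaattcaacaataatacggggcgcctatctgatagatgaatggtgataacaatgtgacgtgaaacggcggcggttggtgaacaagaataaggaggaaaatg
egl-3, chrV:10174705-10175004, minus strand: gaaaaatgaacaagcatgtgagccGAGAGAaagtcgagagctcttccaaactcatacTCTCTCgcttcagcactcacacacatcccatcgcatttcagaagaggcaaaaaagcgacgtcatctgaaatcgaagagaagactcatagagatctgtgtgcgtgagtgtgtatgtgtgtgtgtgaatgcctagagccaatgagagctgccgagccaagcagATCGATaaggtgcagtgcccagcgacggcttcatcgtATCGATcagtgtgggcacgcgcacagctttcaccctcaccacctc
The snb-1 window holds 2 matches to ATCGAT, 2 to TTTATT and 1 to GAGAGA. The egl-3 window, from upstream of the proprotein convertase gene described below, holds 2 to ATCGAT and 2 to GAGAGA. The window from the highest peak downstream of snt-1 holds a single GAGAGA, on the minus strand.

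Neither of the plasma membrane SNARE genes had an IDR peak. The gene ric-4 (WBGene00004364, chromosome V, 10261131 to 10270314, minus strand) encodes SNAP-25. Its highest pooled peak, at 10271134 to 10271497, scored 30.1 at rank 2693, just outside the IDR list, whose lowest score was 30.8. The summit lay 1002 bp upstream of the start, just beyond the promoter window. It scored 30.4 in replicate 2, at rank 852, and overlapped no peak of replicate 1. The highest replicate 1 peak of ric-4 lay elsewhere, 4211 bp downstream of the start in an intron, with a score of 10.8 at rank 3496. It overlapped weaker peaks of replicate 2, so the highest peaks of the replicates lay at different places.

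The gene unc-64 (WBGene00006798, chromosome III, 13277258 to 13283887, plus strand) encodes syntaxin. Its highest pooled peak, at 13275729 to 13276092, scored 25.5 at rank 3710, with the summit 1347 bp upstream of the start. It scored 12.9 in replicate 1, at rank 2482, and 13.7 in replicate 2, at rank 5124. Replicate 2 placed its own highest peak at the far end of the territory, at -7812 bp from the unc-64 start and in a promoter window of the neighbouring gene cpf-2. Of the members, unc-64 alone had neither an IDR peak nor a pooled peak within the 500 ranks below the IDR list. The share of all protein-coding genes with either kind of peak was not counted. The gene overlaps set-25, so its body is not its own throughout.

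The calcium sensor gene snt-1 had the largest number of peaks in territories bounded by protein-coding genes. It encodes synaptotagmin (WBGene00004921, chromosome II, 6810963 to 6816433, plus strand) and lies in a territory of 27.745 kb. In that territory were 8 IDR summits, 28 pooled summits, 26 summits of replicate 1 and 27 of replicate 2. With flanks of at most 2000 bp, or with bounds at genes of any type, the IDR count of snt-1 was 1, as at the other members with a peak. At least 8 IDR summits were found in 7 of all protein-coding genes (0.035%). Of the 355 genes with a territory at least as long, 1.97% had as many. Neighbouring genes share the intergenic sequence between them, so a run of peaks can count for more than 1 gene.

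Of the 8 peaks, 7 lay downstream of snt-1, in the 18.6 kb of intergenic sequence that leads to egl-27 on the same strand. EGL-27 is a homologue of metastasis-associated proteins and acts in cell polarity and migration. No protein-coding gene lies in between, but the annotation places 1 pseudogene and 20 non-coding RNA genes there. Of the 7 peaks, 6 were nearer to the start of egl-27 than to that of snt-1, and none lay in a promoter window. Which gene these peaks belong to cannot be told from position.

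The highest, at 6822275 to 6822638, had its summit 11494 bp downstream of the snt-1 start. Its pooled score was 68.3, at rank 256 of 2570. It scored 29.7 in replicate 1, at rank 267, and 36.7 in replicate 2, at rank 435. It was thus the highest peak of the locus in both replicates. It was also the only peak of the 8 within the 2570 highest of both replicates. The remaining 7 ranked no better than 1178 in replicate 1 and 972 in replicate 2.

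The peak inside the gene, at 6812553 to 6812916, lay in an intron 1772 bp downstream of the start. Its pooled score was 41.3, at rank 1241. It scored 10.5 in replicate 1, at rank 3651, and 27.9 in replicate 2, at rank 1075. The sequence below, along snt-1, holds 2 GAGAGA matches. It also holds a match to TAATTA, and another to TTTATG, which is a core letter run of Abdominal-B-type sites in Drosophila.
snt-1, intron, chrII:6812585-6812884, plus strand: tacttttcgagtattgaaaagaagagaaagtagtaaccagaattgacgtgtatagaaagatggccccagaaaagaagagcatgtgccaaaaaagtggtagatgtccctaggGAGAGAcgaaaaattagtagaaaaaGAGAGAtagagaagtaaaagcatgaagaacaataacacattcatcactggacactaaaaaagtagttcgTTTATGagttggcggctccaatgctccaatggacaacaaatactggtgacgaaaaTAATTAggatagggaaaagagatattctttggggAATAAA
It is shown because it is the only IDR peak inside the body of any of the 10 genes. No IDR summit lay in the promoter windows of snt-1, although the 3700 bp upstream of it are free of protein-coding genes.

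The other 6 peaks of the locus had pooled scores between 31.4 and 40.6. Counted from the snt-1 start, their summits lay at 12497, 14992, 17771, 18773, 20937 and 21966 bp. The last 2 lay 3108 and 2079 bp upstream of egl-27. The outermost, at 6832747 to 6833110, scored 18.4 in replicate 1, at rank 1178, and 19.2 in replicate 2, at rank 2656. The peak at 6831718 to 6832081 scored 11.7 in replicate 1, at rank 3080, and 24.7 in replicate 2, at rank 1492. The peak at 6825773 to 6826136 scored 7.92 in replicate 1, at rank 5835, and 28.9 in replicate 2, at rank 979. For the peaks at 12497, 17771 and 18773 bp, replicate 1 ranks lay between 8082 and 10501 and replicate 2 ranks between 972 and 1555. Replicate 2 placed 7 of the 8 snt-1 peaks within its 2570 highest, and replicate 1 placed 2 there.

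**Figure D2:**
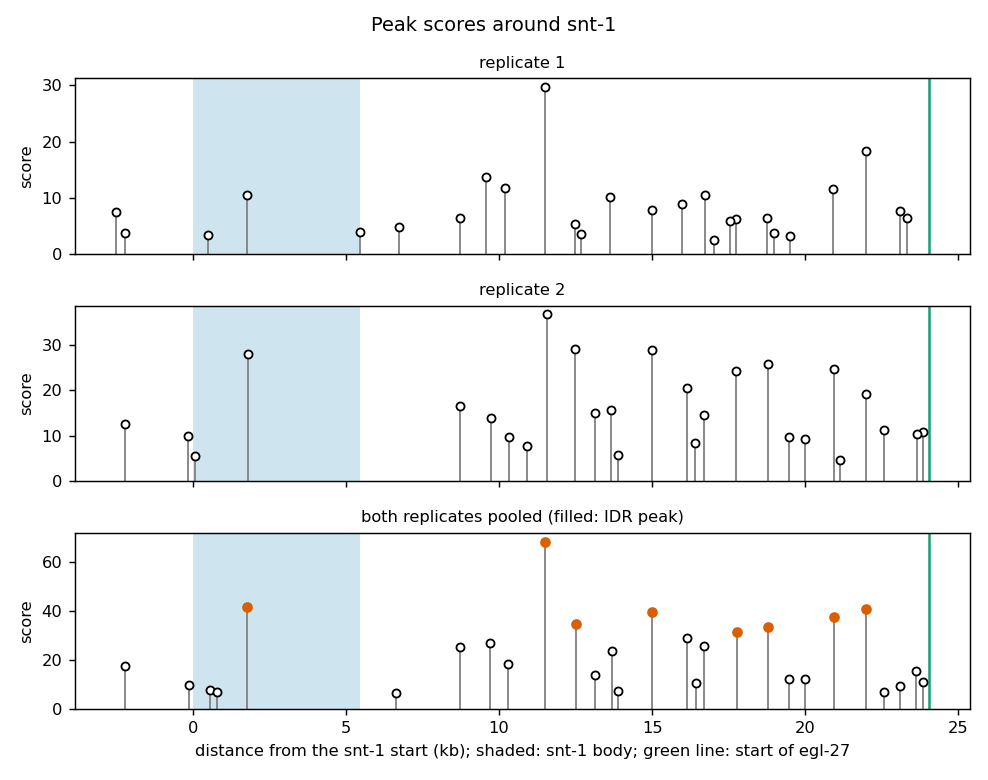
Scores of peaks around snt-1 in the lists of replicate 1, replicate 2 and both pooled, each on its own score scale, against the distance from the snt-1 start in kb. The shaded span is the gene body, the green line is the start of egl-27, and filled points are IDR peaks. The peak 11494 bp downstream is the highest in each list, with scores of 29.7 in replicate 1 and 36.7 in replicate 2. Of the IDR peaks, 2 are within the 2570 highest of replicate 1 and 7 within those of replicate 2.

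The plot of scores around snt-1 shows both what the replicates share and where they differ. At the 7 downstream IDR peaks, scores ran between 5.40 and 29.7 in replicate 1, with ranks between 267 and 10501. They ran between 19.2 and 36.7 in replicate 2, with ranks between 435 and 2656. In replicate 1 the second of these by score was the outermost, at rank 1178.

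Among the regulators of SNARE assembly, unc-18 (WBGene00006757, chromosome X, 7682896 to 7686037, plus strand) encodes the Sec1/Munc18 protein that binds syntaxin. It had an IDR peak at 7681279 to 7681642, 1435 bp upstream of its start, with a pooled score of 31.1 at rank 2510. The region scored 18.5 in replicate 1, at rank 1157, and 18.2 in replicate 2, at rank 2966. It lay in the promoter window of the divergent neighbour stn-2, a syntrophin gene, 842 bp from that start, and the pair of genes cannot be separated here. A further pooled peak, at 7682283 to 7682646, lay closer to unc-18, 431 bp upstream. It scored 30.1 at rank 2685, and it ranked 5008 in replicate 1 and 1797 in replicate 2.

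The gene unc-13 (WBGene00006752, chromosome I, 7422785 to 7454116, plus strand) encodes the priming factor that opens syntaxin. Its territory held 18 pooled summits and no IDR summit. The highest pooled peak, at 7429636 to 7429999, lay in an intron 7033 bp from the outer start and scored 29.1 at rank 2873. It scored 4.38 in replicate 1, at rank 14459, and 25.6 in replicate 2, at rank 1365. The highest replicate 1 peak of the gene ranked 9086, the poorest such rank of the 10 genes. With 3.90 pooled summits per 10 kb, unc-13 stood at percentile 68.8 of all genes, the lowest but ric-19 among the members.

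At the active zone, unc-10 (WBGene00006750, chromosome X, 7272317 to 7280322, minus strand) encodes RIM, a scaffold that links vesicles with calcium channels. Its IDR peak, at 7289601 to 7289964, lay at -9461 bp from its start and 2349 bp from the start of the next gene, lron-7. The pooled score was 37.3, at rank 1657. It scored 17.6 in replicate 1, at rank 1299, and 17.4 in replicate 2, at rank 3229. Replicate 2 had its highest unc-10 peak 299 bp inside the gene, with a score of 18.7 at rank 2805. The peak thus lay closer to its neighbour, and the replicates had their highest peaks at different places.

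The sequence at the distant peak of unc-10, read along that gene, holds an ATCGAT and, on the strand opposite to the one printed, a match to TTTATT.
unc-10, chrX:7289633-7289932, minus strand: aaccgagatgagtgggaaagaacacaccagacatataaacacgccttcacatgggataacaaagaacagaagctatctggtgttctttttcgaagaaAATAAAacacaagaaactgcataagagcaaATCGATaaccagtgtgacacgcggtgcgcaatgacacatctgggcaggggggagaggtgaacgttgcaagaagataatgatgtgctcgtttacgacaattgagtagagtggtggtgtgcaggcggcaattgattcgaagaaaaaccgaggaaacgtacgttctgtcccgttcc
It is shown as the peak farthest upstream of a member's start in the IDR list.

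The vesicle GTPase gene rab-3 (WBGene00004267, chromosome II, 5721767 to 5727853, minus strand) had no IDR peak. RAB-3 marks synaptic vesicles and binds RIM. Its highest pooled peak, at 5725178 to 5725541, scored 30.6 at rank 2607, just outside the IDR list. It scored 8.27 in replicate 1, at rank 5493, and 19.8 in replicate 2, at rank 2480. Both replicates had their highest rab-3 peak here. The body of rab-3 overlaps damt-1. The summit lay in an intron, 2493 bp from the outer start and 630 bp upstream of an internal start. The window below, along rab-3, holds 4 GAGAGA matches, overlapping pairwise on each strand, and an ATCGAT.
rab-3, chrII:5725210-5725509, minus strand: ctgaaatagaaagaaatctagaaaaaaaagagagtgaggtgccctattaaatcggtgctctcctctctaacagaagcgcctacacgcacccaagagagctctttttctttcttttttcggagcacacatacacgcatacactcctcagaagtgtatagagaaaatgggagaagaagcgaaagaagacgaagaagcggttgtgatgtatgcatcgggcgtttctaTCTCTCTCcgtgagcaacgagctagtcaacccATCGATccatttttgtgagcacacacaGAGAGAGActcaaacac
It is shown because it is the peak of a member closest to the end of the IDR list.

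Of the genes that act in dense core vesicles, ric-19 had the highest score of any member. The gene ric-19 (WBGene00004368, chromosome I, 3778089 to 3781690, minus strand) encodes the homologue of the islet autoantigen ICA69 and acts with RAB-2 in dense core vesicle maturation. Its peak, at 3781693 to 3782056, lay 185 bp upstream of the start. The pooled score was 72.0, at rank 198 of 2570. It scored 33.1 in replicate 1, at rank 177, and 40.3 in replicate 2, at rank 305, so both replicates ranked it high. The summit lay in the promoter windows of both ric-19 and its neighbour pmlr-1, and the pair of genes cannot be separated here. This was the single peak of its 4.169 kb territory in each of the 4 lists.

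The gene egl-3 (WBGene00001172, chromosome V, 10169177 to 10173753, minus strand) encodes a proprotein convertase that cleaves neuropeptide precursors. Its IDR peak, at 10174673 to 10175036, lay 1102 bp upstream of the start and scored 37.4 at rank 1646. It scored 14.2 in replicate 1, at rank 2037, and 22.8 in replicate 2, at rank 1785. Both replicates thus placed it within their 2570 highest peaks and had their highest egl-3 peak there. In replicate 2 alone the summit lay at -966 bp, inside the promoter window. No other start was nearer.

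**Figure D3:**
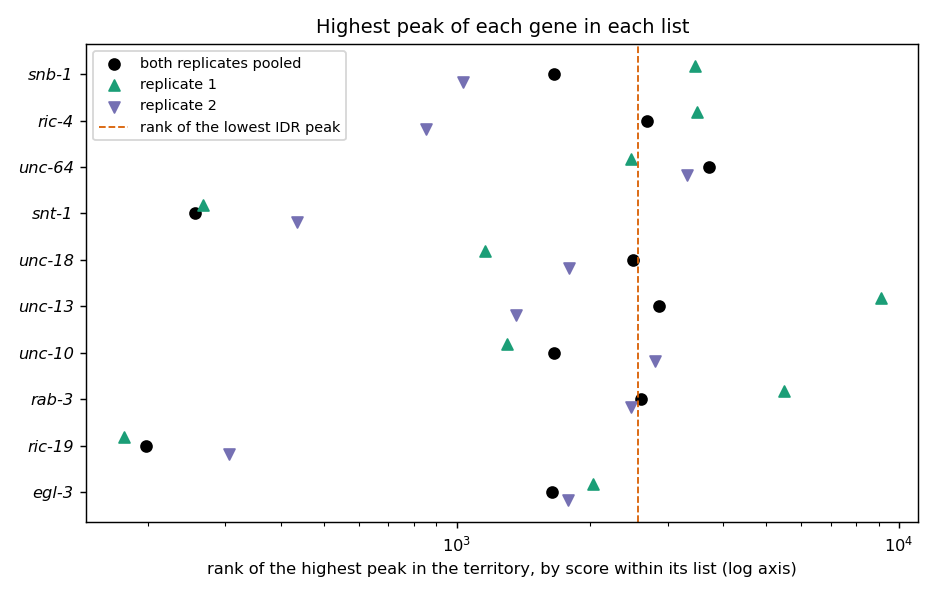
Rank of the highest peak in the territory of each gene, on a log axis on which low ranks, at the left, are high scores, in the pooled list, replicate 1 and replicate 2. The dashed line is the rank of the lowest IDR peak. The genes ric-19 and snt-1 lie at the left in all 3 lists, with ranks between 177 and 435, and the other 8 lie near the line or have replicates far apart.

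The plot of the highest peak of each gene sorts the members into 3 kinds. In ric-19 and snt-1 the best ranks were high in both replicates. In egl-3 and unc-18 they were within the 2570 highest of both, at 2037 and 1785 for egl-3 and at 1157 and 1797 for unc-18, though the peaks of unc-18 did not overlap. In the other 6 genes the best peak passed that rank in a single replicate, which was replicate 2 for snb-1, ric-4, unc-13 and rab-3 and replicate 1 for unc-64 and unc-10. The shares of all protein-coding genes in these 3 kinds were not counted, so the sorting describes the members only. The highest peaks of both replicates overlapped in 5 of the 10 genes, against 52.0% of 10643 genes with a peak in each list.

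Support in the replicates was counted for the 13 IDR peaks of the members, 8 of them at snt-1. Of the 13 IDR peaks, 3 (23.1%) overlapped a peak among the 2570 highest of replicate 1 and another among the 2570 highest of replicate 2, against 53.3% of all IDR peaks. They were those of ric-19 and egl-3 and the highest of snt-1. In replicate 1 alone the count was 6 of 13, against 70.3%, and in replicate 2 it was 10 of 13, against 80.7%. Without the 8 peaks of snt-1, an exclusion chosen after seeing the data, 2 of 5 (40%) were supported in both. For these 5 the count was 4 in replicate 1 and 3 in replicate 2, too few to set against the shares of all IDR peaks. With the 5140 highest peaks of each replicate, 9 of 13 (69.2%) were supported in both, against 85.7%. The median rank of the 13 was 3080 in replicate 1 and 1327 in replicate 2, where the medians of all 2542 IDR peaks present in both were 1453.5 and 1324.5. The peaks share libraries and the 8 of snt-1 share a locus, so these shares describe the lists and carry no test.

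**Figure D4:**
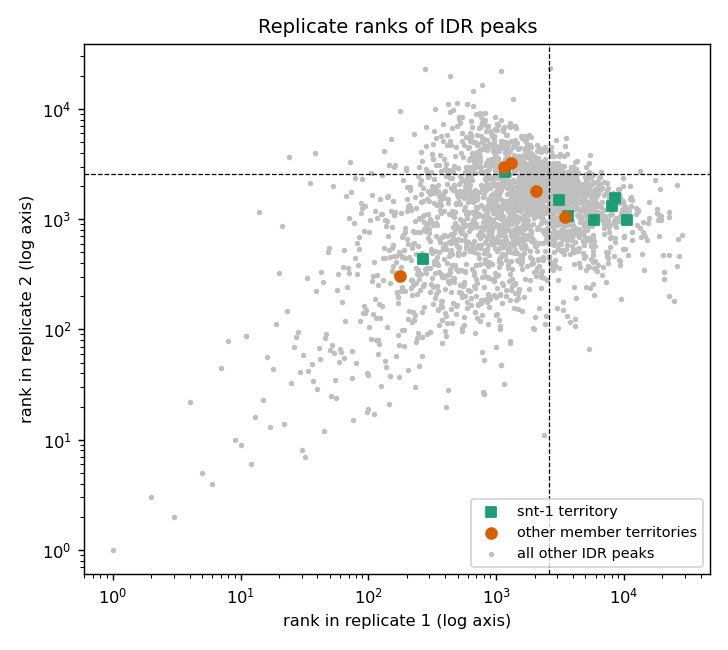
Rank in replicate 1 against rank in replicate 2, both on log axes, for the 2542 IDR peaks with a match in each list; dashed lines mark rank 2570. The coloured points are the 13 IDR peaks of the synaptic genes, of which 3 lie below and left of both lines and 7 lie right of the vertical line.

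In the plot of replicate ranks, the 2 coloured points near the lower left are ric-19 and the highest snt-1 peak, and the third inside both lines is egl-3. The 6 snt-1 peaks and the snb-1 peak right of the vertical line ranked between 3080 and 10501 in replicate 1. Of the 13, 8 had the better rank in replicate 2 (61.5%), against 55.6% of all 2542. These were 6 of the 8 peaks of snt-1 and 2 of the other 5. By the highest peak of each gene, 5 of the 10 members ranked better in replicate 2, against 50.5% of genes with a peak in each list. Among the 500 pooled ranks below the IDR list were 5 member peaks. Those at rab-3, unc-18, unc-13 and snt-1 had the better rank in replicate 2, and that at ric-4 had no match in replicate 1. The share over all 500 such peaks was not counted, so these ranks describe the 5 peaks only.

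The choice of replicate therefore changed which genes had a peak. With the 2570 highest peaks of replicate 2 alone, 8 of the 10 territories held a summit (16.8% of all genes) and 5 promoter windows did (9.05%), those of snb-1, unc-18, rab-3, ric-19 and egl-3. With those of replicate 1 alone, 6 territories held one (16.2%), now with unc-64 and without snb-1, and the promoter window of ric-19 alone did (7.81%). With support required in each replicate, the territories were those of ric-19, snt-1 and egl-3 (9.9%) and the promoter was that of ric-19 (5.14%).

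Other bounds gave other counts. Among the 1285 highest IDR peaks, ric-19 and snt-1 had a summit in the territory (9.69% of all genes), and ric-19 alone had a summit in the promoter window (5.15%). In gene bodies snt-1 alone had a summit (3.25%). With flanks of at most 2000 bp, 5 territories held one (13.3%), and with bounds at genes of any type 5 did (13.2%), in both cases without unc-10. With promoter windows of 500 bp upstream, snb-1 and ric-19 kept theirs (7.11%), as they did with the most upstream start of each gene (8.25%). Windows of 2000 bp added unc-18 and egl-3, making 4 of 10 (11.7%).

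The wider pooled list, which its deposited name describes as peaks with background, held 99 summits in the member territories. That is 61.3 per 100 kb, against 28.5 over the genome. Replicate 1 gave 50.1 and replicate 2 gave 65.0 per 100 kb, against 29.9 in each over the genome. Per gene, the members had a median of 5.62 pooled summits per 10 kb, against 1.98 for all protein-coding genes. The 69 other release genes, described below, had a median of 4.10. All genes had shorter territories, with a median of 4.784 kb against 13.95 kb for the members. Their lower quartile was 0 summits per 10 kb. Among the members, values ran between 2.40 in ric-19 and 11.9 in snb-1. The territory of snt-1 had 10.1 per 10 kb and held 28 of the 99 summits. Of the 99 pooled peaks, 54 (54.5%) overlapped a peak in both replicate lists, against 51.4% of all pooled peaks.

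Motifs were counted in the 300 bp around each summit on both strands. GAGAGA, which overlaps itself, was in 7 of the 13 member windows (53.8%), against 49.1% of all IDR windows, 27.8% of pooled windows and 22.3% of 300 bp windows upstream of all 29314 starts. The members with it were snb-1, snt-1 and egl-3, and most of these windows were at snt-1. The share lay near that of all IDR windows. ATCGAT, a letter run bound by CUT-type homeodomain proteins, which act on pan-neuronal genes in the worm, was in 3 windows (23.1%), at snb-1, unc-10 and egl-3. It was in 13.97% of all IDR windows and 11.9% of upstream windows.

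Letter runs known for Hox and other homeodomain proteins were counted in the same way. TTTATG was in 3 windows (23.1%), all of snt-1, against 28.1% of IDR windows and 26.8% of upstream windows. TTTATT was in 7 (53.8%) against 47.4% and 61.7%, and TAATTA, a general homeodomain core, in 2 (15.4%) against 9.38% and 16.5%. The joint Hox and Pbx motif TGATTTAT, which can overlap TTTATG and TTTATT, was in none, against 3.66% of IDR windows and 3.29% of upstream windows. CAGCTG, an E-box, was in 1 window, at snt-1, against 10.2% of IDR windows. Base composition was alike, with a median GC content of 41% in the member windows and 41% in all IDR windows, against 33.7% upstream of all starts. With 13 windows, 8 of them from the snt-1 territory, these counts describe the sequences and separate nothing.

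Other genes of the release machinery were taken from a list of 69 genes in 8 roles. Promoter windows of 8 of the 69 (11.6%) held an IDR summit, against the same 8.92% of all protein-coding genes, and territories of 24 (34.8%) did, against 16.9%. The median territory of these genes was 10.552 kb, between that of the members and that of all genes.

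Axonal transport had the most, with 3 of 9 promoters. The promoter of unc-14, which encodes a RUN domain protein of axonal transport, had the highest score of the list at 85.2, rank 107, with 33.0 in replicate 1 (rank 183) and 52.3 in replicate 2 (rank 98). The promoter of unc-16, a JIP3 scaffold that links cargo to kinesin, scored 65.6 at rank 306, with ranks of 134 in replicate 1 and 977 in replicate 2. A peak at sam-4 scored 46.2 and lay in promoter windows of F59E12.17 and zyg-1 as well. Its summit was outside the 1.305 kb territory of sam-4. Ranks of unc-14 were high in both replicates, like those of ric-19, while unc-16 ranked lower in replicate 2.

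Single promoters in 5 other roles had a peak. They were nsf-1, the ATPase that takes SNARE complexes apart (57.3, shared with adr-1), and snt-2, another synaptotagmin (44.4, shared with rps-29). Others were syd-2, the active zone scaffold liprin-α (31.5), unc-108, which encodes RAB-2 (42.5 at the higher of 2 peaks), and unc-26, synaptojanin of vesicle endocytosis (50.0). The unc-26 peak ranked 199 in replicate 2 and 22561 in replicate 1, the widest gap of those named. That of nsf-1 ranked 744 in replicate 1 and 550 in replicate 2. The 9 genes of transmitter synthesis and loading had no IDR peak in promoter or territory, and the 10 of dense core vesicles and peptide processing had none in a promoter and 3 in territories. Axonal transport genes had 6 of 9 territories with a peak. These lists are small, and no difference between roles was tested.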

How the data were processed

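ChIP-seq of eGFP-tagged EGL-5 was measured in 2 biological replicates of 1 group. Peaks were deposited by the authors as narrowPeak lists, each peak with a score on their own scale, used here only within a list. They also deposited a −log10 q-value per peak, which was not used for ranking. For the aligner, the peak caller and the IDR cutoff, names and settings are not given in the sources here. The labels name a control experiment that was not analysed here. Only ce11 lists were used for positions, and ce10 lists only for the check of replicate names. No column was left unmapped to a sample or pool.

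Gene models were those of Ensembl release 115 on WBcel235 (ce11), and sequences came from the RefSeq genome of that build. A list's peak was matched to another's by an overlap of at least 1 bp. Shares of genes have exact binomial (Clopper-Pearson) 95% intervals and densities exact Poisson ones. Both cover counting error only. The Poisson ones treat summits as independent, which those of snt-1, sharing a locus, may not be. The members, the 69 further genes and the motifs were chosen with earlier results of these data known. Named were all members, the neighbours whose start a member's peak lay near, and up to 3 genes per role of the 69 with a promoter peak. The code that assigns summits to genes was checked on simulated peaks against a direct count. Alternatives were single replicates, stricter peak sets and other territories or promoter windows. Python 3.11.15, numpy 2.4.6, pandas 2.3.3, scipy 1.17.1 and matplotlib 3.10.9 were used.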

Additional observations from a re-analysis of the deposited data

How the results depend on the processing

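No paired analysis was possible because the samples form 1 group. The density of IDR summits in member territories, 8.04 per 100 kb, lay between 5.57 and 9.90 with the 2570 highest peaks of a single replicate. It was 1.86 with the 1285 highest IDR peaks (1.28 over the genome) and also 1.86 with support in each replicate (1.37 over the genome). Against a genome value of 2.56, it was 4.27 with territories ended by genes of any type, 4.84 with flanks of at most 2000 bp, 1.27 in gene bodies only and 3.73 without the snt-1 territory, an alternative chosen after seeing the data. Members with an IDR summit in the territory numbered 6, between 6 and 8 with a single replicate, 2 with the 1285 highest peaks, 3 with support in each replicate and 1 in gene bodies only. Members with a promoter summit numbered 2, between 1 and 5 with a single replicate, 1 with the 1285 highest peaks, 1 with support in each replicate and 4 with windows of 2000 bp. Of the 69 further genes 8 had a promoter summit, between 8 and 10 with a single replicate, 5 with support in each replicate and 16 with windows of 2000 bp. Support in both replicates was 3 of 13 peaks and 9 of 13 with the 5140 highest peaks of each. Promoter counts thus depend on the replicate and on the window, and densities on snt-1 and on the territory's bounds. The cause was not tested. The lists give no depth, so the precision of a single peak's score or rank is unknown.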
